A study of Anopheles gambiae with 6 samples.

Results

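A set of 39 Anopheles gambiae probe sets was above a log2 value of 6.8 on each of 3 arrays of embryo RNA and below 6.3 on each of 3 arrays of serosa RNA. They were 39 of the 16884 Anopheles probe sets on the array (0.231%), and 1.41% of the 2769 that were above 6.8 on each embryo array. The limits were applied to the measured values themselves. The direction of the difference, its presence on every array and a gap of at least 0.50 between the groups were therefore fixed by the choice and are given as description.

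All material came from the Kisumu strain, 10.5 h into development, and had been fixed with formaldehyde. Embryo RNA came from hand-dissected embryos, and serosa RNA came from the eggshells left after that dissection, which carried the serosa. The labels call the 3 arrays of each group biological replicates and do not say how many eggs were pooled in each. One sentence of the series' design text instead calls the embryo group whole embryos, which would include serosa. The labels were followed, and the values do not settle which holds. The files do not pair the probe set IDs with genes, so the labelled tissues could not be checked against marker genes, no sequence is shown, and only the 2 probe sets with the largest fall are named by ID.

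The serosa is an extraembryonic epithelium. It forms at the surface of the early insect embryo, spreads until it surrounds the embryo inside the eggshell, and makes a chitinous cuticle that in mosquitoes protects the egg from drying. The embryo proper inside it goes on to form the tissues of the larva. An Affymetrix probe set is a group of short oligonucleotides against 1 transcript or a group of similar transcripts. Its level was summarised by the robust multi-array average (RMA) on a log2 scale, where a difference of 1 is 2-fold. Fewer cells that carry a transcript and less of that transcript per cell cannot be told apart in such whole-tissue RNA.

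Levels of the 39 probe sets in embryo were moderate, and their levels in serosa were low but not at the floor of the array. The lowest and highest single values were 6.803 and 7.96 in embryo and 4.62 and 6.297 in serosa. Their median was 6.98, 7.19 and 7.32 on the embryo arrays and 5.88, 5.74 and 6.11 on the serosa arrays, in the order of the replicate numbers. Over arrays, this median averaged 7.16 ± 0.17 (SD, n = 3) for embryo RNA and 5.91 ± 0.18 (SD, n = 3) for serosa RNA.

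Levels of unspecific signal placed these values differently. The 95th percentile of 290 probe sets with IDs of human arrays was taken as such a level. It lay between 6.10 and 6.29 on the embryo arrays and, higher, between 6.32 and 6.47 on the serosa arrays. All 39 probe sets were above it on each embryo array and below it on each serosa array. The choice fixed this, since the level was under 6.8 on each embryo array and over 6.3 on each serosa array. The array also carries probe sets of Plasmodium, the malaria parasite, which is not among the labelled material. Their own 95th percentile lay between 3.87 and 4.02, and all 39 were above it on all 6 arrays. On the embryo arrays the limit of 6.8 fixed this. By rank among the Anopheles probe sets of the same array, their median stood at percentiles 83.9 to 84.3 in embryo and 70.1 to 75.1 in serosa. The single lowest serosa value was at percentile 39.5 of its array. Description of these probe sets as near background in serosa thus holds against the human probe sets, by the choice, and does not hold against the Plasmodium probe sets.

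**Figure D1:**
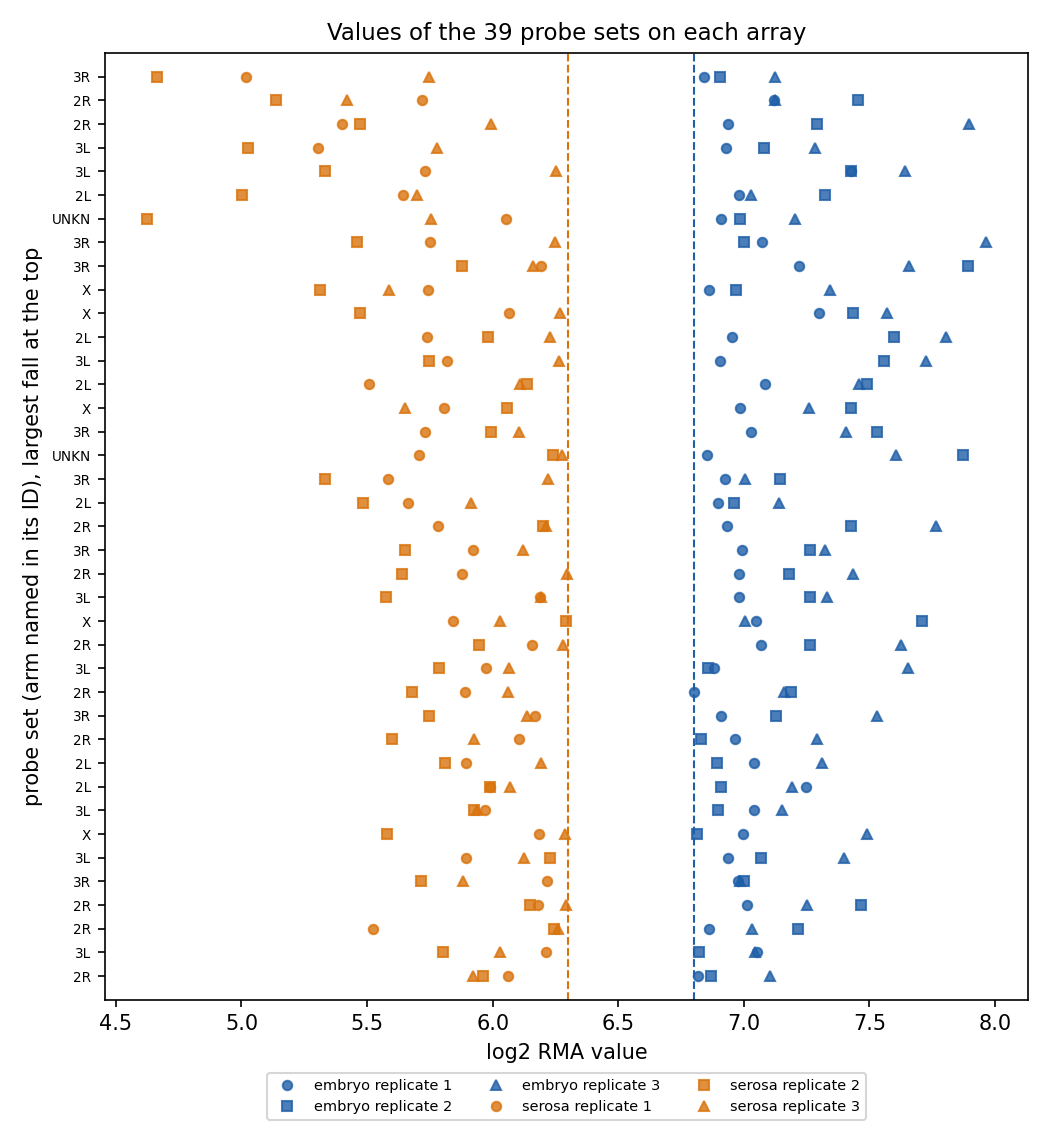
Log2 RMA value (x axis) of each of the 39 probe sets (rows, labelled with the arm in their ID, largest fall at the top) on the 3 embryo arrays (blue) and the 3 serosa arrays (orange). Dashed lines are the limits of 6.8 and 6.3 that chose them, and circles, squares and triangles are replicates 1, 2 and 3. Serosa values spread from 4.62 to 6.297, most widely among the rows at the top.

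The difference of group means, serosa minus embryo, ran from -1.81 to -0.95 with a median of -1.31, that is from 3.52-fold to 1.93-fold lower with a median of 2.48-fold. The median over all Anopheles probe sets was 0.01. A fall of at least 2-fold that limma also called was found in 37 of the 39, against 4.51% of all Anopheles probe sets. Because the serosa values lay under the human-probe level, they were also raised to that level of their own array, which gave falls of at least 1.45-fold to at least 2.28-fold and a median of at least 1.73-fold. In limma, a linear model fitted to every Anopheles probe set, all 39 were lower in serosa at a Benjamini-Hochberg adjusted p under 0.05. Among all Anopheles probe sets 8.79% were called lower, and without embryo replicate 2, embryo replicate 3 or serosa replicate 1 the fit called 678, 647 and 852 in place of 1484, with 32, 34 and 34 of the 39 among them. All serosa values lay under all embryo values in 17.1% of all Anopheles probe sets, and in the 39 by the choice. Among the 2769 above 6.8 on each embryo array, 38.5% were called lower and 53.6% had no overlap in that direction. Nothing is read from the count of 39, since the choice used the same contrast.

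The largest fall was that of Ag.3R.1307.0_CDS_at, a coding-sequence probe set of arm 3R. Its embryo values were 6.84, 6.905 and 7.12, and its serosa values were 5.02, 4.66 and 5.75. The serosa arrays were more widely spaced than the embryo arrays, with serosa replicate 3 closest to embryo. The difference of means was -1.81 (SE 0.26), and with 1 array left out it lay between -1.57 (without serosa replicate 2) and -2.12 (without serosa replicate 3).

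The second was Ag.2R.1476.0_CDS_at, a coding-sequence probe set of arm 2R. Its embryo values were 7.12, 7.45 and 7.13, and its serosa values were 5.72, 5.14 and 5.42. The difference of means was -1.81 (SE 0.17). Its groups were separated by 1.404 between the lowest embryo and the highest serosa value, the widest separation among the 39.

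The third, on 2R, measured 6.94, 7.29 and 7.895 in embryo and 5.399, 5.47 and 5.99 in serosa. Its embryo values were spread over almost as wide a range as any of the 39, with replicate 3 highest in both tissues. The fourth and the fifth, both coding-sequence probe sets on 3L, differed by -1.73 each. The fourth measured 6.93, 7.08 and 7.29 in embryo and 5.31, 5.03 and 5.78 in serosa. Values of the fifth were 7.43, 7.43 and 7.64 in embryo and 5.73, 5.33 and 6.25 in serosa, and its embryo mean was 7.499. In both, serosa replicate 2 was lowest and serosa replicate 3 highest.

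The sixth, on 2L, has neither coding sequence nor UTR in its ID and measured 6.98, 7.32 and 7.03 in embryo and 5.64, 5.003 and 5.698 in serosa. All 39 ranked between the 28th and the 1014th largest fall of all Anopheles probe sets, and 6 of them were among the first 100. The rest of those 100 did not meet both limits.

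Serosa means among the 39 were unevenly spread. Means in serosa lay between 5.14 and 6.21, and 29 of the 39 were above 5.8 while 5 were under 5.5. Embryo means lay between 6.93 and 7.59 with an SD over probe sets of 0.17, against 0.24 for the serosa means. Across the 39, the difference correlated with the serosa mean (Pearson's r = 0.7498) more than with the embryo mean (r = -0.403). Both means enter the difference, both ranges were cut by the limits, and all points share the same 6 arrays, so these are descriptions.

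Spread between replicates was similar in the tissues. The SD between the 3 arrays of a group had a median of 0.22 in embryo and 0.25 in serosa. It reached 0.75 in the serosa values of a probe set labelled UNKN in place of an arm, which measured 6.05, 4.62 and 5.76 in serosa and 6.91, 6.98 and 7.204 in embryo. The serosa value of replicate 2 was far under the others there. At the other end, a probe set of 3L had a serosa SD of 0.02 (5.97, 5.93 and 5.94) and an embryo SD of 0.13 (7.04, 6.896 and 7.15). The widest embryo SD, 0.54, belonged to a probe set of 3R that measured 7.07, 7.0 and 7.96 in embryo and 5.75, 5.46 and 6.25 in serosa.

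Single arrays kept much the same place across the 39. Embryo replicate 1 gave the lowest embryo value in 30 of them and embryo replicate 3 the highest in 24. Serosa replicate 2 gave the lowest serosa value in 27 and serosa replicate 3 the highest in 25. In embryo, part of this order was shared with other probe sets of like level. In serosa, the shares of the 3 replicates among those were closer together. Among the 519 other probe sets that were above 6.8 on each embryo array and whose embryo mean lay within the range of the 39, embryo replicate 1 was lowest in 50.9%, embryo replicate 3 highest in 57.6%, serosa replicate 2 lowest in 39.9% and serosa replicate 3 highest in 38.9%. Serosa replicates 1 and 3 were lowest in 30.6% and 29.5% of those 519, and serosa replicates 1 and 2 highest in 24.3% and 36.8%. The median of those 519 was nearly equal on the serosa arrays (6.89, 6.89 and 6.92), where that of the 39 was not. Within arrays of the same number, the median difference of the 39 was -1.15, -1.51 and -1.33 for numbers 1, 2 and 3.

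Which probe sets met both limits rested mostly on embryo replicate 1 and serosa replicate 3. With embryo replicate 1 left out, 109 probe sets met the limits on the other 5 arrays, and with serosa replicate 3 left out, 106 did. Leaving out embryo replicate 2, serosa replicate 1 or serosa replicate 2 gave 47, 50 and 49. Leaving out embryo replicate 3 gave 39, so that array alone kept no probe set out.

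The array left out gives values that did not take part in the choice. Of the 109 probe sets chosen without embryo replicate 1, 39 (35.8%) were above 6.8 on it and 18 were under 6.3. Their median there was 6.67, with values from 5.74 to 7.43. Among 898 other probe sets that were above 6.8 on the other embryo arrays with a mean in the same range, 81.6% were above 6.8 on embryo replicate 1. Of the 106 chosen without serosa replicate 3, 39 (36.8%) were under 6.3 on it and 17 were above 6.8, with a median of 6.37 and values from 5.42 to 7.86. Of 961 other probe sets in the same embryo range, 2.39% were under 6.3 on that array, with a median of 7.11. For serosa replicates 1 and 2 the share that met the limit was 78.0% and 79.6%, against 13.4% and 22.0% of others in the same embryo range. Over all Anopheles probe sets, most of which are dim in both tissues, the shares under 6.3 on serosa replicates 1, 2 and 3 were 78.1%, 78.1% and 77.5%, near those of the chosen for replicates 1 and 2 and above that of the chosen for replicate 3. For embryo replicates 2 and 3 the share above 6.8 was 83.0% and 100%, against 91.0% and 90.4% in that range. Over all Anopheles probe sets 17.5%, 18.9% and 19.5% were above 6.8 on embryo replicates 1, 2 and 3. The others in the same embryo range were all at or above 6.3 on at least 1 serosa array used in the choice. Their low share on the serosa array left out thus follows in part from how they were taken. Against them, the share of the chosen was higher for each serosa array and lower for embryo replicates 1 and 2. The other arrays of each group entered the choice, so these shares are descriptions.

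**Figure D2:**
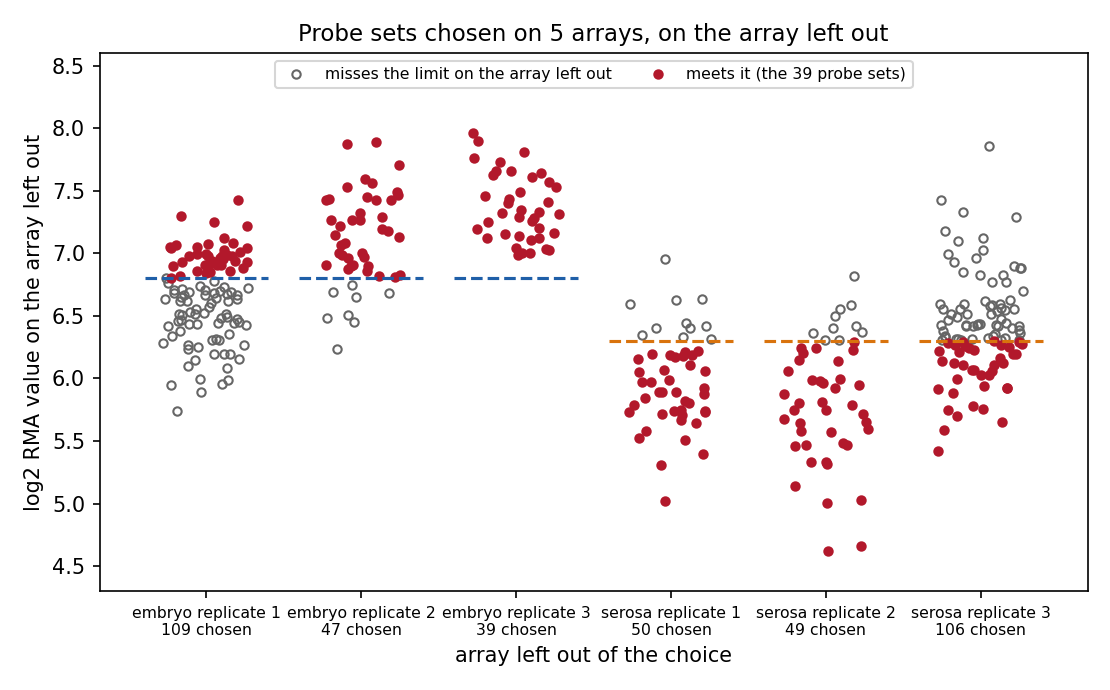
Probe sets chosen by the same limits on 5 arrays (number under each label), plotted at their log2 RMA value (y axis) on the array left out of the choice (x axis). Dashed lines mark the limit of 6.8 for embryo arrays and 6.3 for serosa arrays. Filled points meet it and are the same 39 in every column. Open points are most numerous for embryo replicate 1 and serosa replicate 3.

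Many of the 39 lay close to a limit. On at least 1 array, 26 of them were within 0.1 of it. The 3 nearest to the embryo limit had lowest embryo values of 6.803, 6.813 and 6.819, and the 3 nearest outside it, with serosa values under 6.3, had 6.7995, 6.779 and 6.7599. The 3 nearest to the serosa limit had highest serosa values of 6.297, 6.293 and 6.292, and the 3 nearest outside it had 6.3066, 6.3069 and 6.308. Within 0.1 outside the limits there were 14 probe sets on the embryo side and 27 on the serosa side. Probe sets thus lay close to each limit on both of its sides.

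Probe sets with a high level in embryo did not come down to this range. Of 1566 probe sets above 8 on each embryo array, 0 were under 6.3 on each serosa array, and the lowest value that any of them had as its highest serosa value was 6.74. Only 9 of the 39 were above 7 on each embryo array, of 2517 such probe sets in all. Of the 2769 above 6.8 on each embryo array, 2477 were at or above 6.3 on all serosa arrays, 165 were under it on 1 array, and 88 on 2 arrays. Probe sets of like embryo mean differed less than the 39. The 519 had a median difference of -0.401, quartiles of -0.82 and 0.04, and 152 (29.3%) were called lower by limma. Each of the 519 was at or above 6.3 on at least 1 serosa array. Their smaller fall thus follows in part from how they were taken, and it is given as description.

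With the tissues exchanged, the same limits were met by 91 probe sets, which were above 6.8 on each serosa array and under 6.3 on each embryo array. Their differences ran from 0.94 to 5.41 with a median of 2.95. Of these 91, 35 were above 8 on each serosa array. Both sets were chosen on the same values, and the contrast between them was not tested.

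**Figure D3:**
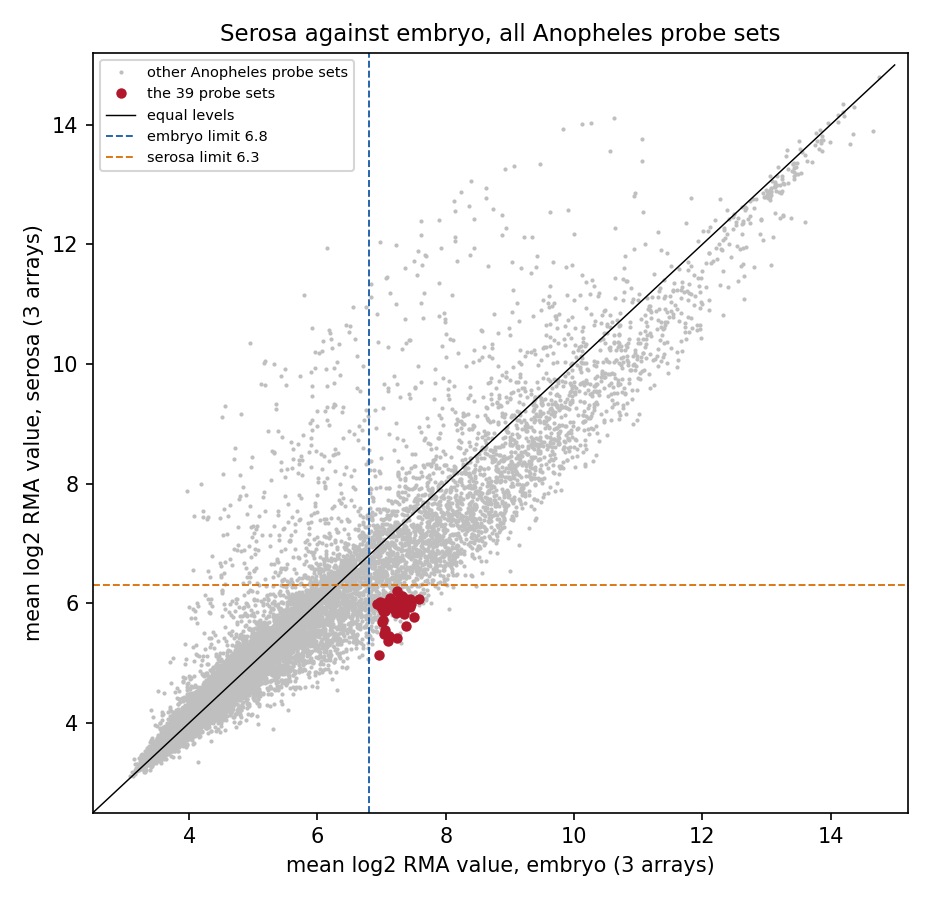
Mean log2 RMA value of each Anopheles probe set in embryo (x axis, 3 arrays) and serosa (y axis, 3 arrays), with the 39 probe sets in red and all others in grey. Dashed lines are the limits of 6.8 and 6.3, and the solid line marks equal levels. The 39 lie just inside the corner of the limits, while grey points reach farther from the solid line above it than below it.

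The IDs of the 39 name an arm, a number and a class that the choice did not use. Arms of the 39 were 2R for 10, 3L and 3R for 8 each, 2L for 6, X for 5 and UNKN for 2. They were 39 different numbers. Arm shares of the 39 and of the 519 of like embryo mean were 25.6% and 31.0% for 2R and 15.4% and 21.0% for 2L. They were 20.5% and 21.6% for 3R, and 20.5% and 16.0% for 3L. For UNKN they were 5.13% and 4.43%, and for the X 12.8% and 5.97%. The X share rests on 5 probe sets. Shares were not tested.

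The 6 probe sets of 2L differed by -1.66 to -1.10 and the 10 of 2R by -1.81 to -0.95. The 8 of 3L differed by -1.73 to -0.96 and the 8 of 3R by -1.81 to -1.05. The 5 of the X differed by -1.51 to -1.08, and the 2 labelled UNKN by -1.55 and -1.37. Ranges of the arms thus overlapped throughout. The median difference of all probe sets above 6.8 on each embryo array was -0.29 for the X and between -0.63 and -0.597 for the other named arms. Among the 39, the median was -1.39 for the X and between -1.37 and -1.18 for those arms.

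No probe set of the 39 was of an untranslated region (UTR) by its ID. An approximate upper bound for 0 of 39 is 3 of 39, or 7.69%. It takes the 39 as independent draws, and the UTR share was not tested. The share was 4.68% among all Anopheles probe sets, 6.36% among the 519 of like embryo mean and 15.02% among the 2769 above 6.8 on each embryo array. Coding-sequence probe sets made up 31 of the 39 (79.5%), and 8 had neither class in their ID. Probe sets whose oligonucleotides match 1 transcript only, by the ending of the ID, were 32 of the 39 (82.1%), against 67.8% of the 519. Endings for several transcripts of 1 gene ("_a_at") were found in 6, and the ending for similar sequences of different genes ("_s_at") in 1, or 2.56% against 7.90%.

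**Figure D4:**
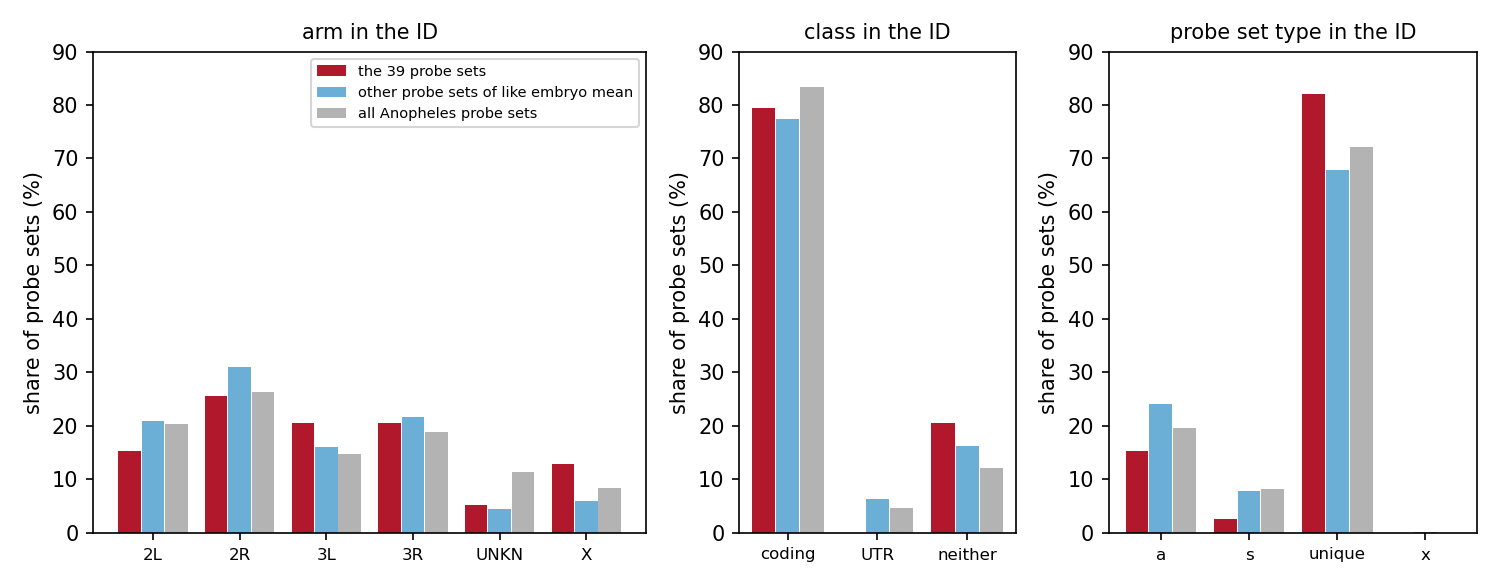
Share of probe sets (y axis, percent) by the arm, the class and the probe set type that their IDs name, for the 39 probe sets (red), the 519 others of like embryo mean (blue) and all 16884 Anopheles probe sets (grey). The UTR class has no red bar, and the red bar of the X (12.8%) stands above the blue one (5.97%).

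Companion probe sets, with the same arm and number in their ID as one of the 39, existed for 3 of the 39. Among the 2769 probe sets above 6.8 on each embryo array, 812 (29.3%) had a companion. These counts were not tested against each other. The companions give another readout under the same arm and number, on the same arrays. The companion of the "_s_at" probe set on 2R followed it closely. That companion measured 7.13, 7.096 and 7.29 in embryo and 6.305, 5.799 and 6.49 in serosa, and missed the limit of 6.3 on serosa replicates 1 and 3. The member itself measured 6.96, 6.83 and 7.29 in embryo, against 6.11, 5.598 and 5.92 in serosa.

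The other 2 companions were low in both tissues. A second 2R companion measured 5.41, 5.26 and 5.38 in embryo and 5.38, 5.12 and 5.33 in serosa. Its difference was -0.07, where its member differed by -1.19. The figure after the number in the ID is 2 for this companion and 0 for its member. Whether both target the same transcript was not known. A UTR companion on 3L measured 4.22, 4.43 and 4.28 in embryo and 4.33, 4.58 and 4.43 in serosa, a difference of 0.14, where its coding-sequence member differed by -1.45. Companions that were low in embryo were common on this array. Of the 812 probe sets above 6.8 on each embryo array that had a companion, 497 (61.2%) had one with an embryo mean under 6.3.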

How the data were processed

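Per the series' design text, the authors used RMAExpress to turn 6 Affymetrix Plasmodium-Anopheles arrays into the deposited log2 values. RMA corrects background, forces the probe values of all arrays to 1 distribution and summarises each probe set, so a change in total RNA per preparation cannot be read from them. The version of RMAExpress is not given in the sources used here, nor are its probe set definitions. The precision is limited by the number of arrays. No column was left unused (0), and no scan date was at hand to test as a batch.

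Groups and replicate numbers came from the sample titles. The fit of serosa against embryo used limma 3.58.1 (R 4.3.3) on all 16884 Anopheles probe sets with no other term, and was checked on simulated data. Its p-values rest on the spread among the 3 arrays within each group, pooled over both groups and moderated by the spread of all probe sets. Figures used matplotlib 3.10.9. Same-numbered arrays deviated together from their group means (r = 0.324, 0.328 and 0.222 across probe sets), so the replicate block was run as an alternative. The labels do not say what the numbers share, and the exact share of equal values between 2 arrays of a group was at most 0.000474 as a fraction.

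None of the IDs (0) matched a table of 15165 RefSeq genes of assembly idAnoGambNW_F1_1, so gene lists were not used. The naming rule took the members with the largest fall, limited to 2 because no gene names were at hand. The members and lists were chosen with earlier results of these data known. Other settings changed the scaling, the limits, the variance model, the filter and the arrays used.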

Additional observations from a re-analysis of the deposited data

How the results depend on the processing

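The number of probe sets that met the limits depended on the limits and the scaling. It was 22 when only the Anopheles probe sets were quantile normalized (21 of them among the 39), 9 with the medians of bright probe sets equalised (those with a mean above the human-probe level), 1 with the embryo limit raised to 7.3, 79 with the human-probe level as serosa limit and 255 by group means. Equalised hybridization controls gave 43, of which 13 were among the 39. The mean of these controls was 10.02, 10.82 and 9.56 on serosa replicates 1, 2 and 3, against 9.40 to 9.64 on the embryo arrays. That scaling thus moved the serosa arrays against each other. Both limits raised by 0.2 gave 44, with 9 shared, and both lowered by 0.2 gave 34, with 14 shared. Leaving out 1 array gave 39 to 109.

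Equal bright medians gave the 39 a median difference of -0.99, and equal hybridization controls one of -1.91. These scalings add 1 constant to each array, so they shifted the median of all Anopheles probe sets to 0.33 and -0.59 and by construction left the 39 at -1.32 relative to it. Quantile normalization of Anopheles values alone, which is not such a shift, gave -1.14, also relative to that median. It was -1.73 for the 1 probe set at an embryo limit of 7.3, -0.79 with serosa values raised to the human-probe level, and -1.41 to -1.17 with 1 array left out.

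The 39 were chosen on this contrast, so their calls are given as description. All 39 were called lower with the replicate block, under each scaling and with the prior variance following the level. Of the 39, 37 were called and at least 2-fold, and 32 to 39 were called with 1 array left out. A fit to bright probe sets only held 35 of the 39 and called all 35, and the other 4 were not in it. Over all 16884 Anopheles probe sets 1484 were called lower in the main fit, 1976 with the replicate block and 762 at 2-fold or more. The prior variance following the level gave 1366, quantile normalization 1167, bright medians equalised 993, and the bright probe sets only 1350. Hybridization controls equalised gave 2241, with an SE of 0.42 for both named probe sets, against 0.26 and 0.17 in the main fit. With 1 array left out there were 647 to 1477. The cause was not tested except for those constants.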
